A study of Homo sapiens with 4 samples.

Results

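The 46 genes described here act in DNA damage signalling and in the repair of broken or crosslinked DNA. They were taken from a list of homologous recombination, Fanconi, end joining, checkpoint and mismatch repair genes and were matched by gene symbol. All 46 were found among the 60675 annotated genes of the count files, and all 46 were among the 17600 genes with enough counts to be tested. RNA-seq had been performed on the human prostate cancer line LNCaP, which came from a lymph node metastasis and responds to androgen. Every library came from cells given 1 nM R1881, a synthetic androgen, for 72 h in hormone-depleted medium. A pair of libraries also received DMSO vehicle (R1881 + vehicle), and the other pair 50 µM CPI-455, an inhibitor of the KDM5 histone H3 lysine 4 demethylases (R1881 + CPI-455). The labels give 2 replicates per group, which the methods call biological replicates. No library without androgen was analysed here and a single cell line was used, so the comparison covers the inhibitor in the presence of androgen in LNCaP cells.

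Broken chromosome ends are sensed by the MRE11-RAD50-NBN complex, which recruits the kinase ATM. Resected ends and stalled forks activate the kinase ATR instead. Ends are either ligated directly by non-homologous end joining, or resected and copied from the sister chromatid by homologous recombination, for which BRCA1, PALB2 and BRCA2 load the recombinase. Crosslinks between DNA strands are recognised by the Fanconi core complex, which attaches ubiquitin to FANCD2 and FANCI, and are then unhooked by nucleases. In prostate cancer, several of these genes are known as sites of inherited or acquired mutation and as markers of response to PARP inhibitors.

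The libraries held 19623553 and 20690819 counted fragments with vehicle and 9522920 and 5401588 with CPI-455. Replicates differed by more than sampling noise, with a chi-square per degree of freedom of 5.77 between the vehicle pair and 8.63 between the CPI-455 pair. Depth differed between the groups, and effects of depth and of treatment on rarely detected genes cannot be told apart. The level that 3 counts represent was 0.145 to 0.153 CPM (counts scaled to library size) in the vehicle libraries and 0.315 to 0.555 CPM in the CPI-455 libraries. The LNCaP label was checked against 11 luminal prostate markers. Their summed level ranged from 1039 to 1128 CPM in vehicle libraries and from 414.3 to 469.5 CPM in CPI-455 libraries. Of the 11, 8 were called lower (72.7%), against 21.3% of all genes tested and 24.4% of protein-coding genes. Basal markers summed to 0.189 and 0.275 CPM in the vehicle libraries and 1.24 and 1.19 CPM in the CPI-455 libraries. Immune markers summed to 3.31 and 4.17 CPM and then 6.64 and 4.56 CPM. Endothelial markers summed to 1.14 and 1.56 CPM and then 0.450 and 0.0 CPM. In these lists, only KRT5, CD3E, CD68 and CDH5 were at 3 counts or fewer in every library. Stromal markers summed to 668 and 758 CPM in the vehicle libraries but 1354 and 1541 CPM in the CPI-455 libraries, nearly all of it VIM, while DCN was at 3 counts or fewer. Neuroendocrine markers summed to 24.2 and 26.5 CPM in the vehicle libraries and 29.1 and 41.2 CPM in the others. They did not move together, as of the 3 tested CHGA was called lower (log2 change -1.32), 1 rose and 1 did neither. The part of these shifts in the results on repair genes was not tested.

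Levels are given as CPM after TMM normalization, with the value of replicate 1 before that of replicate 2. Changes are log2 fold changes of CPI-455 over vehicle ± standard error (SE) from edgeR, so a negative value is a lower level with CPI-455. A gene is said to have risen or fallen where its false discovery rate (FDR) over all 17600 genes was below 0.05, and it is called where the change was also at least 2-fold. In RNA from whole cultures, fewer cells expressing a gene and less RNA per cell cannot be told apart.

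With CPI-455, 12 of the 46 genes were called lower (26.1%) and 2 were called higher (4.35%), 14 in all against 42.4% of all genes tested. Over all 17600 genes tested, 21.3% were called lower and 21.0% higher, and over the 13813 protein-coding genes 24.4% and 15.6% (40.0% in either direction). The share called lower was thus near the background. The called genes were DCLRE1A, DCLRE1B, FANCF, MSH6, CDK12, BRCA2, PALB2, FANCB, PRKDC, BRIP1, RBBP8 and DCLRE1C on the lower side, and CHEK2 and FANCL on the higher side. Without the minimum fold, 23 of the 46 fell and 9 rose, against 32.8% and 29.8% of all genes and 38.7% and 26.3% of protein-coding genes. The remaining 14 did not pass the FDR, with log2 changes from -0.32 to 0.37. The median log2 change of the 46 was -0.31, compared with -0.04 for all genes and -0.21 for protein-coding genes. The values of the groups did not overlap for 25 genes that were lower and 13 that were higher, against 42.8% and 39.1% of all genes and 48.8% and 34.5% of protein-coding genes. The counts of calls moved with the processing, to 11 lower and 5 higher with upper-quartile factors, 14 and 2 with library totals, and 9 and 4 once a trend with exon length and GC content was taken out. No called gene changed sign in these fits.

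**Figure D1:**
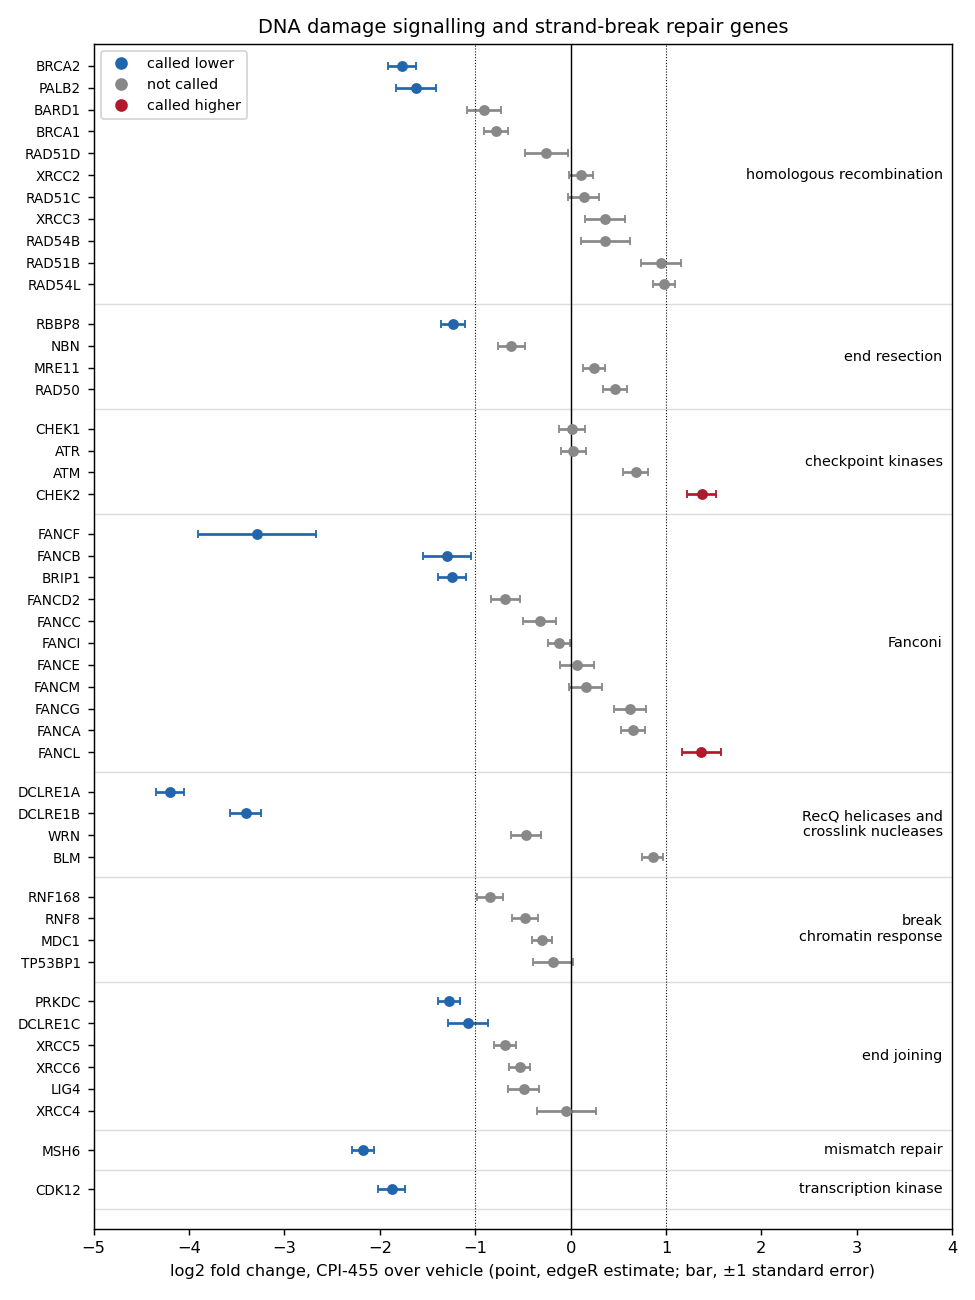
Log2 fold change of each of the 46 genes, CPI-455 over vehicle, on the horizontal axis, with genes grouped by role on the vertical axis. Points are edgeR estimates, bars are 1 SE on either side, and dotted lines mark a 2-fold change; DCLRE1A, DCLRE1B and FANCF lie farthest to the left and only CHEK2 and FANCL are called on the right.

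The largest falls were in DCLRE1A and DCLRE1B, nucleases of the SNM1 family that digest DNA past a crosslink, DCLRE1B also protecting telomere ends. DCLRE1A (ENSG00000198924) lies on the reverse strand of chromosome 10 from 113834725 to 113854383 in GRCh38 and has 11 exon blocks. Its level was 184 and 170 CPM with vehicle and 9.33 and 10.1 CPM with CPI-455, from 3896, 3722, 83 and 51 counts. This 18.4-fold lower level was a log2 change of -4.20 ± 0.15 (edgeR FDR = 3.722e-07), the largest among the 46 genes. DCLRE1B, on the forward strand of chromosome 1 from 113905141 to 113914086, was at 109 and 110 CPM with vehicle and 9.33 and 11.7 CPM with CPI-455. Its log2 change was -3.41 ± 0.16 (edgeR FDR = 7.398e-07). For both nucleases the vehicle values were close to each other and lay far above the CPI-455 values. The RecQ helicases, which unwind recombination and fork intermediates, moved less and in opposite directions. BLM rose from 104 and 98.2 to 181 and 186 CPM (log2 change 0.86 ± 0.11, edgeR FDR = 1.327e-04), and WRN fell from 45.7 and 42.2 to 29.2 and 34.7 CPM (log2 change -0.47 ± 0.16, edgeR FDR = 0.027). The fall of WRN did not pass with upper-quartile factors (edgeR FDR = 0.137), DESeq2 (adjusted p = 0.0772) or a trend with exon length and GC content taken out (edgeR FDR = 0.797).

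Promoter windows are shown for the genes with the largest falls and for both genes called higher, so that the starts of genes moving in opposite directions can be compared. Each runs from 250 bases before to 50 bases after the start in RefSeq on GRCh38.p14, printed 5′ to 3′ on the strand of the gene. Gene positions and distances between neighbouring genes use the Ensembl 83 ends instead, which can differ from these starts. The DCLRE1A window lies wholly inside the span given above for that gene. Capitals mark a GC box (GGGCGG, or CCGCCC on the other strand) or a CCAAT box (CCAAT, or ATTGG on the other strand).
DCLRE1A, chr10:113854033-113854332, reverse strand: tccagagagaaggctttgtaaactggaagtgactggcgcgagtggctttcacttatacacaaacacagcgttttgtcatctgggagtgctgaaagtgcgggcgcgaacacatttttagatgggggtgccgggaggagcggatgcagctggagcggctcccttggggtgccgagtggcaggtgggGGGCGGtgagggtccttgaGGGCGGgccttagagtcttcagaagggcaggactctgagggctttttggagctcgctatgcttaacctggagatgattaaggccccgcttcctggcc
DCLRE1B, chr1:113905076-113905375, forward strand: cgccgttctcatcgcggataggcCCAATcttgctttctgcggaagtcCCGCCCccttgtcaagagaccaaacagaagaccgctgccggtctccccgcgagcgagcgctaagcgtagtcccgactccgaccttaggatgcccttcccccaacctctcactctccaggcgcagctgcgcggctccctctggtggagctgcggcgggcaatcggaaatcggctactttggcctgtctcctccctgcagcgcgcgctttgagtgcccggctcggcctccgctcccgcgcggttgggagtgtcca
CHEK2, chr22:28741771-28742070, reverse strand: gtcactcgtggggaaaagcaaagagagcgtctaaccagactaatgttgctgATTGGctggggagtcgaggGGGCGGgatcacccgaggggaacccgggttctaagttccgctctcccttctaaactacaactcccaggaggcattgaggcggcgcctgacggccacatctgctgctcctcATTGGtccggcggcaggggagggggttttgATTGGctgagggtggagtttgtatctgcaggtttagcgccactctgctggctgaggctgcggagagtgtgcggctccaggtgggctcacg
FANCL, chr2:58241276-58241575, reverse strand: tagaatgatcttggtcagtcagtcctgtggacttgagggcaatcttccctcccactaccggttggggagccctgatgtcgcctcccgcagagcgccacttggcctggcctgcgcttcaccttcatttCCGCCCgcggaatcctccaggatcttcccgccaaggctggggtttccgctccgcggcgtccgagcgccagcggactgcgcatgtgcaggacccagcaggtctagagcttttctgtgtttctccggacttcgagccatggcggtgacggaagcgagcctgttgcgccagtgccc
All 4 windows held a GC box, with 2 in DCLRE1A, while CCAAT boxes were found in DCLRE1B (1) and CHEK2 (3). Of the 46 genes, 40 had a window in the table, and XRCC5, NBN, RAD54B, PRKDC, WRN and FANCI did not. A GC box was present in 32 of these 40 genes and in 43 of their 59 windows (72.9%), compared with 45.0% of all 35116 promoter windows. It was found in 7 of the 11 genes called lower that had a window and in both genes called higher. CCAAT boxes were in 47.5% of the windows of these genes against 34.6% of all windows. The E2F letters TTTCCCGC were in 6.78% against 1.63%, and the ETS letters CCGGAAGT in 13.6% against 4.14%, on either strand and without overlap between these motifs being removed. These matches describe the letters of the windows.

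Among the 11 Fanconi genes, 3 were called lower (27.3%) and 1 higher (9.09%), against 24.4% and 15.6% of protein-coding genes. FANCF, an adaptor of the core complex, has 1 exon block of 4269 bases on chromosome 11 from 22622519 to 22626787. Its level was 8.47 and 6.41 CPM with vehicle and 0.225 and 1.59 CPM with CPI-455. It was counted 179 and 140 times with vehicle but only 2 and 8 times with CPI-455, so the first CPI-455 library lies below the level that 3 counts represent. The summed counts gave a level 10.3-fold higher with vehicle (exact 95% interval 5.55 to 21.8, for counting error only). FANCF passed the filter on low counts through the vehicle libraries and could not be tested with at least 10 counts required in every library, so its place among the called genes rests on that filter. The log2 change was -3.29 ± 0.62 (edgeR FDR = 0.00134), and it ranged from -5.05 without CPI-455 replicate 2 to -2.24 without CPI-455 replicate 1. FANCB, another core complex subunit, was at 25.5 and 25.9 CPM with vehicle and 12.9 and 7.34 CPM with CPI-455 (log2 change -1.29 ± 0.25, edgeR FDR = 0.00175). BRIP1, a helicase that binds BRCA1, was at 67.9 and 79.5 CPM with vehicle and 31.4 and 30.7 CPM with CPI-455 (log2 change -1.25 ± 0.15, edgeR FDR = 7.711e-05). Neither gene had overlapping groups, as in 42.8% of all genes and 48.8% of protein-coding genes on the lower side. FANCL, the ubiquitin ligase of the core complex, moved the other way, from 11.2 and 12.5 CPM to 27.3 and 34.5 CPM (log2 change 1.37 ± 0.20, edgeR FDR = 3.007e-04).

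Below 2-fold, the core subunits FANCA and FANCG rose and the ubiquitinated protein FANCD2 fell. FANCA was at 127 and 118 CPM with vehicle and 210.2 and 174 CPM with CPI-455, and FANCG at 68.0 and 56.3 CPM and then 109.6 and 80.3 CPM. FANCD2 was at 165 and 171 CPM with vehicle and 120.4 and 87.4 CPM with CPI-455 (log2 change -0.68 ± 0.15, edgeR FDR = 0.00352). Its partner FANCI, at 233 and 243 CPM and then 207 and 230.4 CPM, did not pass the test (edgeR FDR = 0.371). FANCC, FANCE and FANCM did not pass either, with edgeR FDR values of 0.130, 0.752 and 0.441. The median log2 change of the 11 Fanconi genes was -0.12 and became 0.06 with upper-quartile factors, so it gives no direction. FANCD2 did not pass once the length and GC trend was taken out (edgeR FDR = 0.126), nor FANCG with library totals (edgeR FDR = 0.0525).

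In homologous recombination, the mediators BRCA2 and PALB2 were called lower (18.2%, against 24.4% of protein-coding genes). In all, 4 of 11 genes fell, where 38.7% of protein-coding genes fell. BRCA2, which loads the recombinase on single-stranded DNA, lies on chromosome 13 from 32315474 to 32400266. It was at 166 and 154 CPM with vehicle and 41.5 and 53.3 CPM with CPI-455, a level 3.41-fold lower (log2 change -1.77 ± 0.15, edgeR FDR = 8.662e-06). PALB2, which joins BRCA1 to BRCA2, was at 38.6 and 42.6 CPM with vehicle and 11.0 and 16.1 CPM with CPI-455 (log2 change -1.62 ± 0.21, edgeR FDR = 1.285e-04). BRCA1 and BARD1, which form a ubiquitin ligase with each other, fell by less than 2-fold. BRCA1 was at 172 and 167 CPM and then 90.4 and 108 CPM (log2 change -0.78 ± 0.13, edgeR FDR = 5.426e-04). BARD1 was at 46.6 and 56.5 CPM and then 24.4 and 31.1 CPM (log2 change -0.91 ± 0.18, edgeR FDR = 0.00177). In each of these 4 genes both CPI-455 values lay below both vehicle values, as in 42.8% of all genes and 48.8% of protein-coding genes.

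The recombinase paralogs and RAD54 proteins, which stabilise and remodel the recombinase filament, gave another picture. RAD51B rose from 11.98 and 16.5 to 27.6 and 27.4 CPM (log2 change 0.95 ± 0.21, edgeR FDR = 0.00364). RAD54L, a DNA translocase, rose from 62.4 and 58.2 to 119 and 118.6 CPM (log2 change 0.98 ± 0.12, edgeR FDR = 8.864e-05). Both stayed just under the 2-fold limit in the main fit, but passed it with upper-quartile factors (log2 changes of 1.12 and 1.15). RAD51C, RAD51D, XRCC2, XRCC3 and RAD54B did not pass the FDR, with values from 0.157 for XRCC3 to 0.477 for RAD51C. XRCC3 shares 76.7% of its exon bases with other genes, RAD54B 55.1% and RAD54L 25.1%, and fragments on shared bases were not counted.

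Of the 4 genes of end resection, RBBP8 alone was called, where 40.0% of protein-coding genes were called in either direction. RBBP8 encodes CtIP, the cofactor that starts resection with the MRE11 complex. It was at 160.3 and 179.9 CPM with vehicle and 74.7 and 70.0 CPM with CPI-455 (log2 change -1.23 ± 0.12, edgeR FDR = 2.537e-05). Of the MRE11 complex itself, NBN fell from 65.7 and 74.3 to 43.2 and 48.2 CPM (log2 change -0.62 ± 0.14, edgeR FDR = 0.00405), while RAD50 rose from 174.6 and 195 to 233 and 279 CPM (log2 change 0.47 ± 0.13, edgeR FDR = 0.00992). MRE11, the nuclease, was at 80.5 and 83.6 CPM and then 97.4 and 97.4 CPM and did not pass the test (edgeR FDR = 0.0914). The fall of NBN did not pass once the length and GC trend was taken out (edgeR FDR = 0.234), and the rise of RAD50 did not pass with library totals (edgeR FDR = 0.0739).

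The checkpoint kinases were the group with no gene that fell, where 38.7% of protein-coding genes fell. CHEK2, the effector kinase downstream of ATM, lies on the reverse strand of chromosome 22 from 28687743 to 28742422. It was at 20.0 and 22.8 CPM with vehicle and 55.3 and 55.9 CPM with CPI-455, a 2.60-fold higher level (log2 change 1.38 ± 0.15, edgeR FDR = 4.935e-05). ATM rose from 83.1 and 85.7 to 123 and 149 CPM (log2 change 0.68 ± 0.13, edgeR FDR = 0.00144). ATR and its effector CHEK1 overlapped between the groups. ATR was at 76.2 and 68.2 CPM and then 69.9 and 77.5 CPM (edgeR FDR = 0.875), and CHEK1 at 79.4 and 79.3 CPM and then 72.1 and 89.0 CPM (edgeR FDR = 0.935). The difference between the ATM and ATR branches was not tested.

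Genes of the chromatin response at breaks fell in 3 of 4 cases, all by less than 2-fold, where 38.7% of protein-coding genes fell. RNF168, a ubiquitin ligase that marks histone H2A beside breaks, fell from 73.5 and 81.1 to 45.0 and 40.6 CPM (log2 change -0.85 ± 0.14, edgeR FDR = 5.581e-04). RNF8, which acts before it, was at 71.2 and 75.5 CPM and then 56.6 and 48.0 CPM (log2 change -0.48 ± 0.14, edgeR FDR = 0.0132). MDC1, the scaffold that binds phosphorylated histone H2AX, was at 329.6 and 347 CPM and then 282 and 268 CPM (log2 change -0.30 ± 0.11, edgeR FDR = 0.0342). TP53BP1, which limits resection, was at 59.8 and 64.9 CPM and then 67.9 and 40.1 CPM and did not pass the test (edgeR FDR = 0.469). Of the falls, that of RNF168 passed in every alternative. Those of RNF8 and MDC1 did not pass with upper-quartile factors (edgeR FDR = 0.0762 and 0.339) or with the length and GC trend taken out (edgeR FDR = 0.563 and 0.0966).

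In end joining, 5 of 6 genes fell and none rose, where 38.7% of protein-coding genes fell and 26.3% rose. PRKDC, the catalytic subunit of DNA-dependent protein kinase, was at 590.2 and 679 CPM with vehicle and 257 and 269 CPM with CPI-455 (log2 change -1.27 ± 0.11, edgeR FDR = 1.447e-05). DCLRE1C, the Artemis nuclease that PRKDC activates, was at 36.3 and 31.6 CPM and then 18.7 and 12.9 CPM (log2 change -1.08 ± 0.21, edgeR FDR = 0.00162). Its call was lost without CPI-455 replicate 2, with a log2 change of -0.91. The Ku subunits, which bind broken ends first, fell by less. XRCC5 was at 236 and 257 CPM and then 146 and 160.4 CPM (log2 change -0.69 ± 0.12, edgeR FDR = 6.729e-04), and XRCC6 at 328 and 369 CPM and then 240.4 and 241 CPM (log2 change -0.53 ± 0.11, edgeR FDR = 0.00242). LIG4, the ligase, fell from 36.2 and 34.5 to 24.0 and 26.6 CPM (edgeR FDR = 0.0236), but did not pass with upper-quartile factors (edgeR FDR = 0.115), DESeq2 (adjusted p = 0.0813) or the length and GC trend taken out (edgeR FDR = 0.4995). Its cofactor XRCC4 did not pass the test (edgeR FDR = 0.909). Per kilobase of exon, XRCC6 had the highest level of the 46 genes in both groups, at 106 and 73.2 CPM per kilobase, and FANCF the lowest with CPI-455 at 0.212.

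MSH6, which recognises base mismatches as part of a dimer, lies on chromosome 2 from 47695530 to 47810101. It was at 333 and 347 CPM with vehicle and 75.6 and 75.2 CPM with CPI-455, a level 4.51-fold lower (log2 change -2.17 ± 0.11, edgeR FDR = 9.150e-07). CDK12, a kinase of RNA polymerase II that sustains the transcription of long repair genes, lies on chromosome 17 from 39461511 to 39564907. It was at 178 and 219 CPM with vehicle and 56.5 and 51.4 CPM with CPI-455, a level 3.67-fold lower (log2 change -1.88 ± 0.14, edgeR FDR = 5.377e-06). Its paralog CDK13 was also called lower (log2 change -1.61), and its cyclin CCNK was not called.

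**Figure D2:**
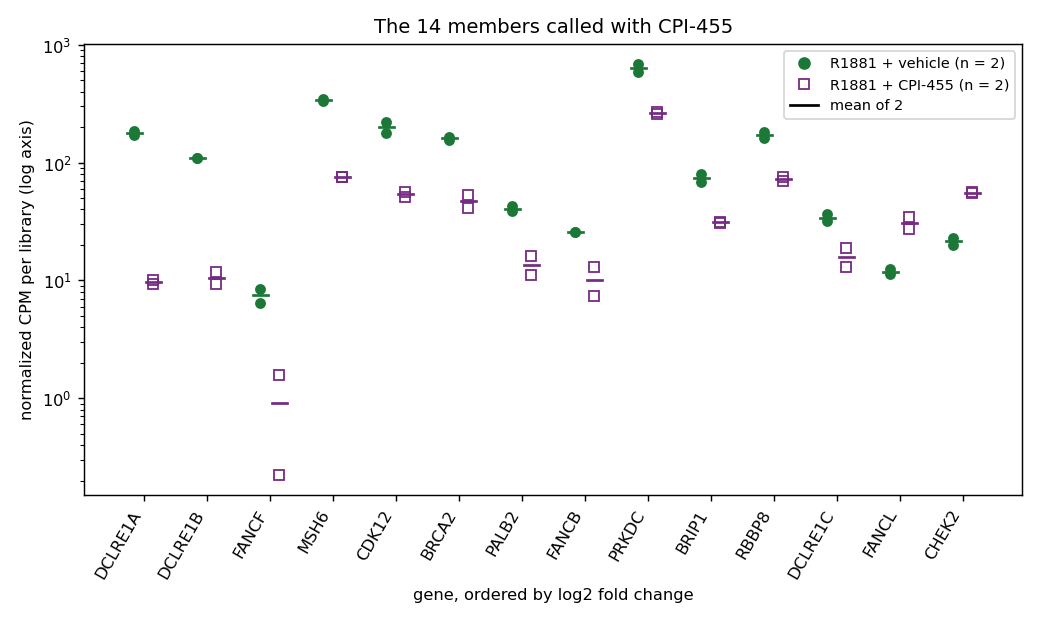
Normalized CPM on a log axis in each library for the 14 called genes, ordered by log2 fold change; circles are vehicle, squares CPI-455, and lines the mean of 2. The genes were picked by their calls in these same libraries, so separate groups largely follow from that choice. Over all genes tested, the groups did not overlap in 42.8% (lower) and 39.1% (higher). The squares lie above the circles only in FANCL and CHEK2.

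Other repair and damage-response genes were then counted to place these values in their pathways. Of 112 listed, 111 were matched and 110 tested, of which 21 were called lower (19.1%) and 24 higher (21.8%), with a median log2 change of -0.06. Over all genes tested, 21.3% were called lower and 21.0% higher, and over protein-coding genes 24.4% and 15.6%. In homologous recombination and resection, 11 of 34 other genes were called higher (32.4%) and 3 lower (8.82%). RAD52, an annealing protein, was at 18.1 and 16.0 CPM and then 107 and 106 CPM, and EME2, a nuclease subunit, had a log2 change of 2.42. RMI1, which works with BLM in dissolving recombination intermediates, and the helicase gene RECQL were called lower, with log2 changes of -2.51 and -1.46. The other Fanconi and crosslink genes were called lower in 6 of 18 cases (33.3%) and higher in 1 (5.56%). The latter was UBE2T, the ubiquitin-conjugating partner of FANCL (log2 change 1.39). ERCC4, the nuclease that cuts beside a crosslink, was at 58.1 and 70.4 CPM and then 8.32 and 7.53 CPM. USP1, which removes ubiquitin from FANCD2, had a log2 change of -2.15.

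Of 23 other genes of end joining and single-strand break repair, 5 were called lower (21.7%) and 4 higher (17.4%). These shares were near the 24.4% and 15.6% of protein-coding genes. PARP2, which signals strand breaks, was at 63.9 and 60.7 CPM with vehicle and 480.1 and 500.1 CPM with CPI-455. CYREN and SHLD1, regulators of the choice of end joining, had log2 changes of -2.25 and -1.42. Other damage signalling genes were called lower in 7 and higher in 7 of 31 cases (22.6% each), against 21.3% and 21.0% of all genes tested. ATMIN, an ATM cofactor, had a log2 change of -2.89, BAZ1B, a kinase of histone H2AX, of -1.68, and TIMELESS, a fork protection protein, of 2.29. ATRIP, the partner of ATR, was called higher from only 4 and 0 counts in the vehicle libraries and 14 and 5 in the others, so no fold is given. In mismatch repair, 1 of 4 other genes was called, where 40.0% of protein-coding genes were called in either direction. This gene was MSH5, known for its role in meiotic crossing over, with a log2 change of 2.23.

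Lists of p53 target genes and of S-phase genes were read beside these. Among 29 p53 target genes, 15 were called lower (51.7%) and 3 higher (10.3%), with a median log2 change of -1.16. Of protein-coding genes, 24.4% were called lower and 15.6% higher, with a median of -0.21. TIGAR, which lowers glycolysis, and SESN2, a stress-responsive inhibitor of mTORC1, both had a log2 change of -2.53. PIDD1, an adaptor for caspase activation (1.96), and GADD45A, a growth arrest gene (1.70), were called higher. PPM1D stands both in this list and in that of damage signalling. Among 50 S-phase and proliferation genes, 12 were called lower (24.0%) and 9 higher (18.0%), where 4.35% of the 46 repair genes were called higher. The median was -0.31 in both lists, but the upper quartile was 0.89 for the S-phase list and 0.22 for the repair genes. FEN1, the flap nuclease of lagging-strand synthesis, and UHRF1, which maintains DNA methylation, had log2 changes of -2.66 and -2.40. POLE2, a replicative polymerase subunit, and LIG1, the replicative ligase, had log2 changes of 1.80 and 1.75. Whether the share of cells in S phase had a part in the repair gene values was not tested.

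**Figure D3:**
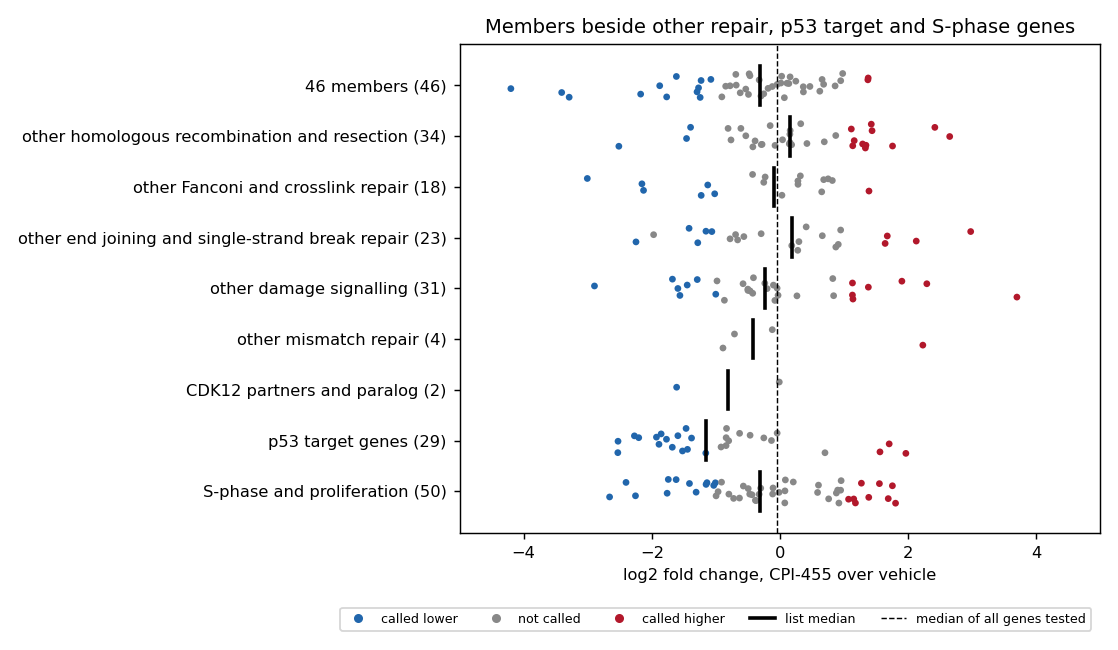
Log2 fold change (CPI-455 over vehicle) of each tested gene in the 46 repair genes and in 8 other lists, with the number tested in brackets. Blue points are called lower, red called higher and grey not called, the thick bar is the list median and the dashed line the median of all genes; the p53 target list has its median at -1.16 and the S-phase list at -0.31.

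The change of a gene went along with the length of its longest exon block. Over 13813 protein-coding genes, the Spearman correlation between that length and the log2 change was -0.288, and over the 46 genes it was -0.268. These are descriptions across genes, which share libraries and depth and are not independent replicates. With the protein-coding genes ordered by this length in 5 bins of nearly equal size, the median log2 change went from 0.38 for the shortest through -0.04, -0.23 and -0.50 to -0.71 for the longest. The 46 genes held 10, 9, 7, 8 and 12 members in these bins, with medians of 0.01, -0.12, 0.01, -0.84 and -0.22. The median longest block was 2414 bases in the genes called lower, 2100 in those not called and 653.5 in CHEK2 and FANCL. Other properties also went along with the change over protein-coding genes, with Spearman correlations of 0.193 for exon GC and -0.163 for gene span. Over the 46 genes these were 0.0731 and 0.0589. The trend taken out in an alternative fit was one with total exon length and exon GC, not with the longest block. After it, the log2 changes of RBBP8 (-0.85), BRIP1 (-0.77) and DCLRE1C (-0.69) were below 2-fold, and the median of the 46 genes was -0.0698.

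**Figure D4:**
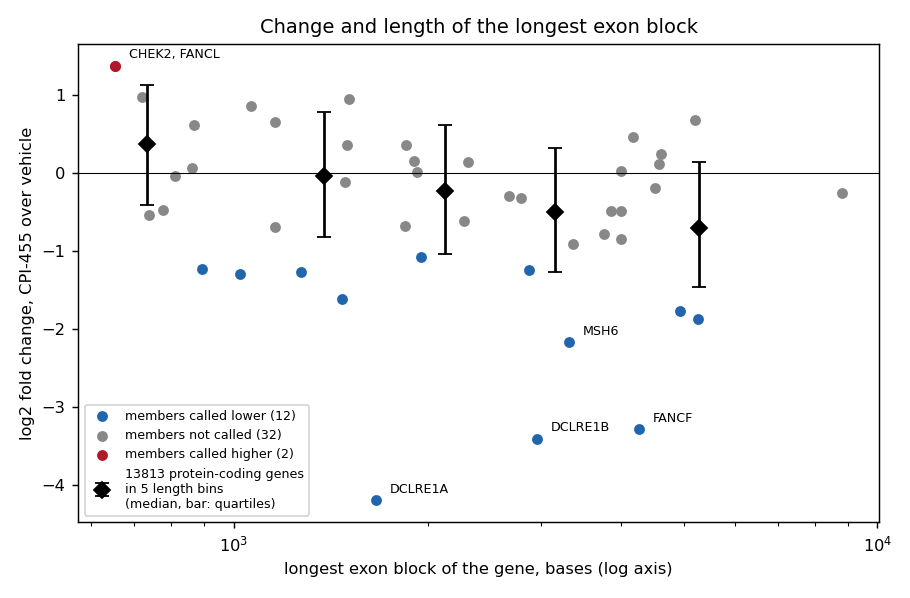
Log2 fold change (CPI-455 over vehicle) against the length of the longest exon block in bases, on a log axis, for the 46 genes coloured by call. Black diamonds with bars are the median and quartiles of the 13813 protein-coding genes in 5 bins of that length, whose medians go from 0.38 to -0.71, and the labelled DCLRE1A, DCLRE1B, FANCF and MSH6 are the genes with the lowest values.

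Many repair genes start beside another gene on the opposite strand. Of the 46 genes, 20 had a protein-coding neighbour with its start within 1000 bases and the opposite orientation, and 18 of these neighbours were tested. This comparison was chosen after the values were seen. The log2 changes had the same sign in 14 pairs (77.8%) and opposite signs in 4. Among all 1101 such pairs of tested protein-coding genes, 53.3% had the same sign. Signs were counted whether or not a gene passed the FDR. The repair genes TP53BP1, XRCC4, FANCM, XRCC3 and RAD51C did not pass, and their signs changed in some alternative fits. The neighbours ZAR1L, PURG, NPAT and HSCB did not pass either, so the share with the same sign rests partly on unsettled signs. Both genes were called in 4 pairs (22.2%, against 12.9% of all such pairs), of which 3 moved together. In 4 further pairs the neighbour was called and the repair gene was not, with MAP1A (-1.30) beside TP53BP1, TEX14 (-2.07) beside RAD51C, FKBP3 (1.45) beside FANCM and ZFYVE21 (1.35) beside XRCC3. DCLRE1A starts 278 bases from NHLRC2, which had a log2 change of -1.11, PALB2 starts 82 bases from DCTN5 (-2.05), and FANCB starts 372 bases from MOSPD2 (-1.41). DCLRE1B and AP4B1, whose ends overlap by 60 bases, were called in opposite directions. AP4B1, a subunit of an adaptor complex, was counted 427 and 422 times with vehicle and 703 and 480 times with CPI-455 in the shallower libraries (log2 change 2.13 ± 0.15, edgeR FDR = 3.831e-06). PRKDC and the replication helicase gene MCM4 start 2 bases apart, and MCM4 fell by less than 2-fold (log2 change -0.80). HSCB, beside CHEK2, did not pass the test (log2 change -0.10, edgeR FDR = 0.751). Strand was not used in counting, so reads of overlapping ends cannot be assigned to either gene of such a pair.

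**Figure D5:**
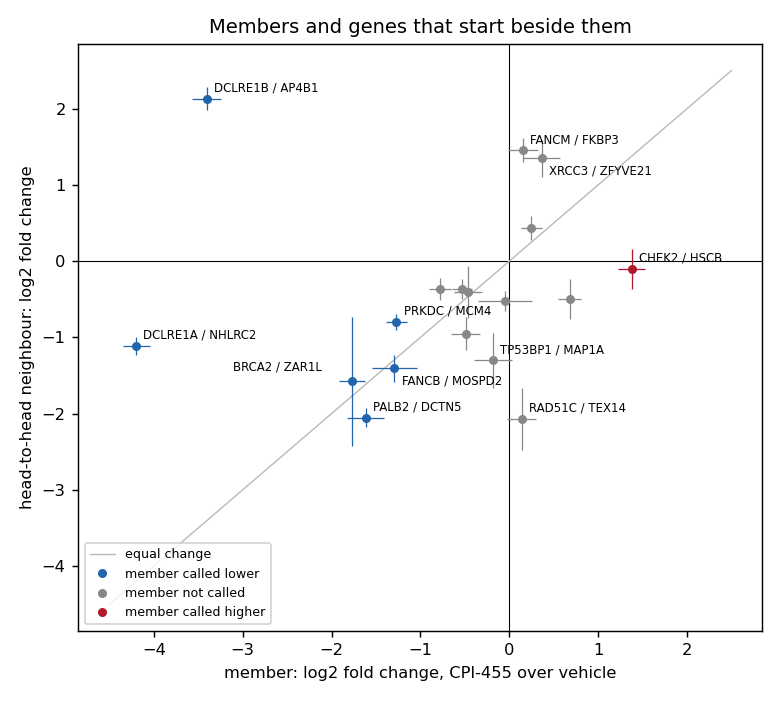
Log2 fold change (CPI-455 over vehicle) of 18 repair genes on the horizontal axis and of the gene that starts beside each on the vertical axis, with bars of 1 SE and a line of equal change. DCLRE1B and AP4B1 lie alone in the upper left at -3.41 and 2.13, and DCLRE1A, PALB2 and FANCB lie with their neighbours in the lower left.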

How the data were processed

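RNA-seq was measured in 4 libraries of LNCaP cells, 2 per group. The authors used Trim Galore on the reads, STAR for alignment to GRCh38, and featureCounts (v1.5.0-p1) with the Ensembl 83 annotation. Raw fragment counts per gene were deposited, with no normalization. Per the file headers counting ignored strand and skipped multi-mapping or multi-gene fragments. RNA selection is not given in the sources used here.

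Symbols were matched for 56558 genes. Groups were compared with edgeR 4.0.16 in R 4.3.3 (TMM, filterByExpr at a minimum of 10 counts, quasi-likelihood test, Benjamini-Hochberg adjustment), and calls needed an FDR below 0.05 and a 2-fold change. SE is the log2 change divided by the square root of F. The members and lists were chosen with earlier results of these data known. All members were named, with the 2 called genes of largest change in each direction from other lists, except genes that are not reported here. P-values test the difference between groups against the spread between 2 replicates per group, with information on that spread shared across genes. Alternatives were other scalings, filters, thresholds and tests (DESeq2 1.42.0), a length and GC trend (mgcv 1.9.3), a replicate block and leaving out each library.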

Additional observations from a re-analysis of the deposited data

How the results depend on the processing

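Of the 46 genes, the 32 past the FDR kept their sign in the 15 alternatives that gave a log2 change, and 11 of the other 14, all near 0, changed sign in at least 1. Of the 14 calls, 11 held in each alternative that gave a value, and DCLRE1C, RBBP8 and BRIP1 fell below 2-fold in some. In the other direction, RAD51B, RAD54L, BLM, BARD1 and RNF168 passed 2-fold in some alternatives. Of the 32 genes, 23 stayed below an FDR of 0.05 wherever they were tested. The others were RAD51B, RAD50, NBN, FANCD2, FANCG, WRN, MDC1, RNF8 and LIG4, and RAD51B was lost only without vehicle replicate 1 (edgeR FDR = 0.0924). The median log2 change of the 46 genes moved from -0.31 to -0.13 with upper-quartile factors, -0.50 with library totals, -0.46 without a filter and -0.25 with at least 10 counts in every library, where FANCF could not be tested. It was -0.0698 with the length and GC trend removed, and -0.0741 with the replicate block as well. Upper-quartile factors shifted the median of all genes by 0.175 and library totals by -0.189. Members called higher became 5 with upper-quartile factors, 4 with the trend removed (also 4 with the block) and 5 with glmTreat against a 1.5-fold change. With the FDR alone, 32 members were called, 23 lower and 9 higher, and 5767 genes were lower in place of 3756. Leaving out 1 library gave medians of -0.40 to -0.32, 12 to 13 members called lower and 2 to 3 higher. In these fits the lone library was assumed to vary like the other group.

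The labels number replicates 1 and 2 in both groups, but same-numbered libraries did not deviate together (r = 0.0543 across 17600 genes), so the numbers gave no pairing. With the replicate block, 12 members were called lower and 2 higher, and 7167 genes were called in place of 7454. Depth limits FANCF most, with 2 and 8 counts with CPI-455.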

Other observations

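In 6 of the 46 genes the CPI-455 replicates differed by more than 1.5-fold. These were RAD51D (46.1 and 26.6 CPM), XRCC3 (95.9 and 56.7 CPM), FANCB (12.9 and 7.34 CPM), FANCF (0.225 and 1.59 CPM), TP53BP1 (67.9 and 40.1 CPM) and XRCC4 (6.52 and 9.91 CPM). Of these, FANCB and FANCF were called. More than 10% of exon bases were shared with other genes in 8 of the 46, among them TP53BP1 (28.7%), FANCA (23.6%), FANCL (19.7%), ATR (16.4%) and MSH6 (16.2%).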
